A study of Mus musculus with 23 samples.

Results

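The splicing factors described here are 5 mouse genes, Prpf39, Tia1, Prpf4b, Cwc22 and Snrnp48, whose own transcripts appear among the called splicing events of skeletal muscle. They were taken by gene symbol from the authors' deposited table, which lists 265 events in 221 genes over 3 comparisons. The 5 genes account for 6 of the listed events and 5 distinct ones, since the event of Cwc22 is listed under both diets. Because the genes were picked from called events, their levels are a description and carry no test.

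RNA sequencing of skeletal muscle covered 23 male mice. NZO/HIBomDife mice, which develop obesity and diabetes from many genes, had food ad libitum (5 samples), fasted intermittently (5 samples) or had their calories restricted (3 samples). Mice of the C57BL/6J strain were sedentary (5 samples) or exercised (5 samples). These groups follow the intervention group label. A separate treatment label reads intermittent fasting for every NZO sample and exercise for every C57BL/6J sample, and was not used. The question was which splicing events differ after each intervention. The ages of the mice, the schedules of feeding and exercise and the muscle sampled are not stated in the labels.

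Introns are removed by the spliceosome, which forms on each intron from small nuclear ribonucleoproteins (snRNPs). The U1 snRNP recognises the 5' splice site, the U2 snRNP the branch site, and the U4/U6.U5 tri-snRNP then joins before the catalytic steps. A rare class of introns is removed instead by the minor spliceosome, in which the U11 and U12 snRNPs take the place of U1 and U2. Many splicing factors are known to be subject to alternative splicing themselves, and some versions of their transcripts are retained in the nucleus or degraded.

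For each group the table gives 1 inclusion level, the percent spliced in (PSI) written as a fraction from 0 to 1. It is read here as the share that hold the listed stretch among transcripts measured at the event. These need not be all transcripts of the gene. The level is the authors' own value for the group, with no standard deviation, since mice are not given singly, and the sequencing depth behind it is unknown. Every listed event has in the authors' deposited table an absolute difference between groups of 0.2 or more, with a probability of a difference of 0.9 or more. In whole muscle, a shift of level within a cell type cannot be told apart from a shift in the mix of cells or of RNA. The table holds no expression values, so the tissue label could not be checked against marker genes. None of 28 markers of muscle fibres and other cell types of muscle had a listed event. Only 0.977% of all protein-coding genes, expressed in muscle or not, had one, so nothing is read from this.

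In NZO muscle, the listed events of the 5 genes differed from ad libitum by 0.345 to 0.618, in both directions. Under caloric restriction, inclusion was higher than ad libitum in Tia1 and Prpf4b and lower in Cwc22 and Snrnp48. Under intermittent fasting, inclusion was lower in Cwc22 and Prpf39. Of the 4 events under caloric restriction 2 were thus higher, where 52.6% of all 114 listed events were higher and 47.4% lower. Both of the fasting events were lower, where 60.8% of all 79 listed events were lower. Since the genes were chosen from these lists, nothing is read from those counts. After exercise, in mice of the other strain, none of the 72 listed events belonged to any of the 5 genes. Those events lie in only 67 genes, where RefSeq gives 21896 protein-coding genes, so nothing is read from this absence either. Diet and exercise were given to different strains, so whether the listed events of the 5 genes are specific to diet was not tested. An event that is absent from a list was not called there, which does not show that its level stayed the same.

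**Figure D1:**
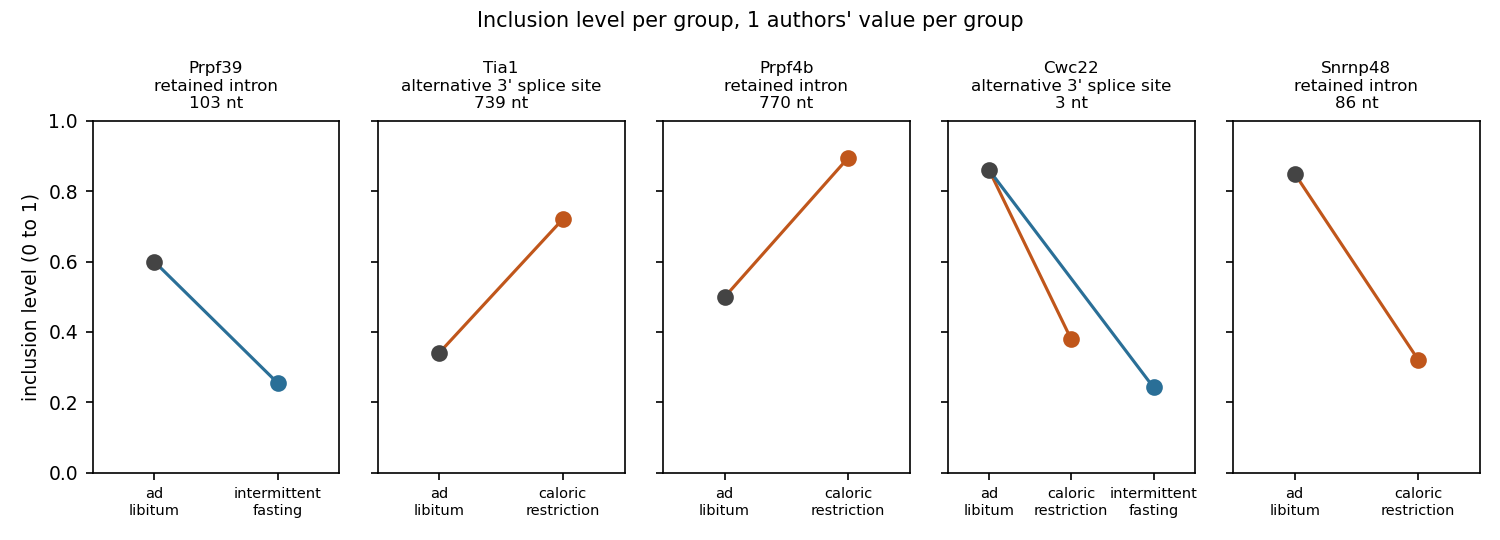
Inclusion level (vertical axis, 0 to 1) of the listed event of each splicing factor, with 1 point for each group, the authors' single value. The grey point is the ad libitum level, and lines lead to caloric restriction (orange) and intermittent fasting (blue). Tia1 and Prpf4b were higher under caloric restriction, while Cwc22, Snrnp48 and Prpf39 were lower under the diets for which they are listed.

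Prpf39 encodes a factor that in yeast is a component of the U1 snRNP and in mammals associates with it. Its listed event is a retained intron of 103 nucleotides, which need not be the whole intron, on chromosome 12 (65043612 to 65043714, plus strand, mm10). The level was 0.600 ad libitum and 0.255 under intermittent fasting, a difference of -0.345 with a probability of 0.916. The share without the intron stretch at this event was accordingly 0.400 ad libitum and 0.745 under fasting. By size of difference the event was number 46 of the 79 fasting events and number 9 of the 15 retained introns of that comparison, and so not among its larger ones. No Prpf39 event was listed under caloric restriction.

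Tia1 encodes an RNA-binding protein that binds uridine-rich stretches downstream of weak 5' splice sites and helps recruit the U1 snRNP, and that also assembles stress granules in the cytoplasm. Its listed event is an alternative 3' splice site on chromosome 6 (86423606 to 86424344, plus strand). The stretch of 739 nucleotides had an ad libitum level of 0.341 and a level of 0.721 under caloric restriction, a difference of 0.379 with a probability of 0.919. At this event the version without the stretch thus predominated ad libitum and the version with it under caloric restriction. The stretch was the second longest of the 43 distinct alternative 3' splice site events in the table, whose median length was 3 nucleotides. In size of difference it was number 51 of 114 in its comparison.

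Prpf4b encodes a kinase that phosphorylates components of the tri-snRNP as the spliceosome is activated. A retained intron of 770 nucleotides on chromosome 13 (34903274 to 34904043, plus strand) had an ad libitum level of 0.499 and a level of 0.894 under caloric restriction. The difference was 0.395 with a probability of 0.951. The share without the intron stretch was 0.501 ad libitum and 0.106 under caloric restriction. Among the 22 retained introns of this comparison, Prpf4b had the second highest level under caloric restriction, while its difference was number 13 in size.

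Cwc22 encodes a spliceosomal protein that brings the helicase EIF4A3 into the spliceosome, from which the exon junction complex is laid down on the spliced transcript. Its listed event is a stretch of 3 nucleotides at an alternative 3' splice site on chromosome 2 (77932764 to 77932766, minus strand), the shortest length in the table for this type. The level was 0.860 ad libitum, 0.379 under caloric restriction and 0.243 under intermittent fasting. The difference from ad libitum was -0.482 under caloric restriction, with a probability of 0.969, and -0.618 under fasting, with a probability of 0.984. The longer version, which predominated ad libitum, was thus the minority version under both diets. Under fasting the event had the largest difference of the 13 alternative 3' splice site events and the third largest of all 79 events. Under caloric restriction it was number 7 of 21 and number 22 of 114. The authors' confidence class, whose meaning is not stated, was 2 for the fasting event and 1 for the event under caloric restriction.

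The comparisons under which Cwc22 is listed use the same ad libitum mice, so their directions are not independent. The ad libitum levels given for the 2 comparisons were 1e-05 apart for Cwc22. They were not identical for other events listed in both, with a gap of up to 0.0053, in Rnf111. The fasting level of Cwc22 lay 0.136 below its level under caloric restriction, which is the second largest gap between the diets among the 10 events listed in both. With 1 value per group this gap could not be tested. Of the other 9 events listed in both diets, the most like Cwc22 by Euclidean distance over the 3 levels were skipped exons of Gopc (distance 0.123), Pcgf5 (0.209) and Rnf111 (0.215). Gopc had levels of 0.774 ad libitum, 0.380 under caloric restriction and 0.331 under fasting. Hectd2, like Cwc22 a 3-nucleotide alternative 3' splice site, was also lower under both. Its level went from 0.710 to 0.158 under caloric restriction and from 0.713 to 0.236 under fasting. Of the 10 events listed in both diets, only those of Neb and Zfp446 were higher under both, and the others were lower under both.

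Stretches of 3 nucleotides at a 3' splice site were common in the table. They made up 23 of the 43 distinct alternative 3' splice site events. Under caloric restriction 12 were listed, 7 higher and 5 lower, and under fasting 7 were listed, 4 higher and 3 lower. The ad libitum level of Cwc22 was the second highest of these events in both comparisons. In absolute difference Cwc22 was number 5 of 12 under caloric restriction and number 1 of 7 under fasting.

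**Figure D2:**
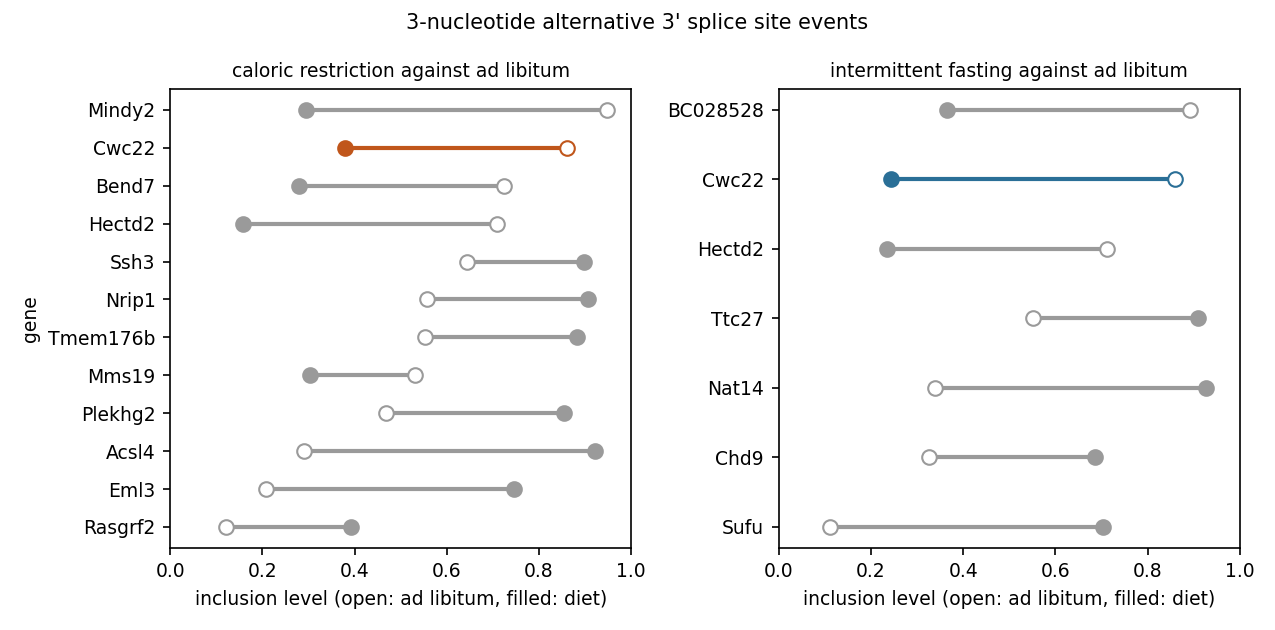
Inclusion level (horizontal axis, 0 to 1) of each 3-nucleotide alternative 3' splice site event under caloric restriction (left, 12 events) and intermittent fasting (right, 7 events), ordered by the ad libitum level. Open circles are ad libitum, filled circles are the diet, and Cwc22 is coloured; it starts near the top of both orders, at 0.860, and ends at 0.379 and 0.243.

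Snrnp48 encodes a protein of the U11/U12 snRNP, which recognises introns of the minor class. A retained intron of 86 nucleotides on chromosome 13 (38216239 to 38216324, plus strand) had an ad libitum level of 0.850 and a level of 0.322 under caloric restriction. The difference was -0.528 with a probability of 0.995, the highest probability of the 6 events. The share without the intron stretch at this event was 0.150 ad libitum and 0.678 under caloric restriction. It was the twelfth largest difference of 114 and the fourth largest of the 22 retained introns, and its ad libitum level was the second highest of those 22. Whether the listed intron belongs to the minor class was not determined here.

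The 3 listed intron stretches differed in length as well as in direction. Whether a listed stretch is a whole intron was not checked, so the lengths compared here are those of the stretches. The introns of Snrnp48 and Prpf39, at 86 and 103 nucleotides, were lower in inclusion and lay below the median of 290 nucleotides over the 51 distinct retained introns, of which 6 were shorter than that of Snrnp48 and 9 shorter than that of Prpf39. The intron of Prpf4b, at 770 nucleotides, was higher in inclusion and longer than 37 of the 51. Over all retained introns under caloric restriction, those below the median length divided into 4 higher and 6 lower and the rest into 8 higher and 4 lower. Under fasting the same counts were 3 higher and 5 lower, and 2 higher and 5 lower. After exercise, in C57BL/6J mice, they were 7 higher and 3 lower, and 3 higher and 5 lower. The diet counts include the introns of Snrnp48, Prpf39 and Prpf4b themselves. Both kinds of length thus occurred with both directions.

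**Figure D3:**
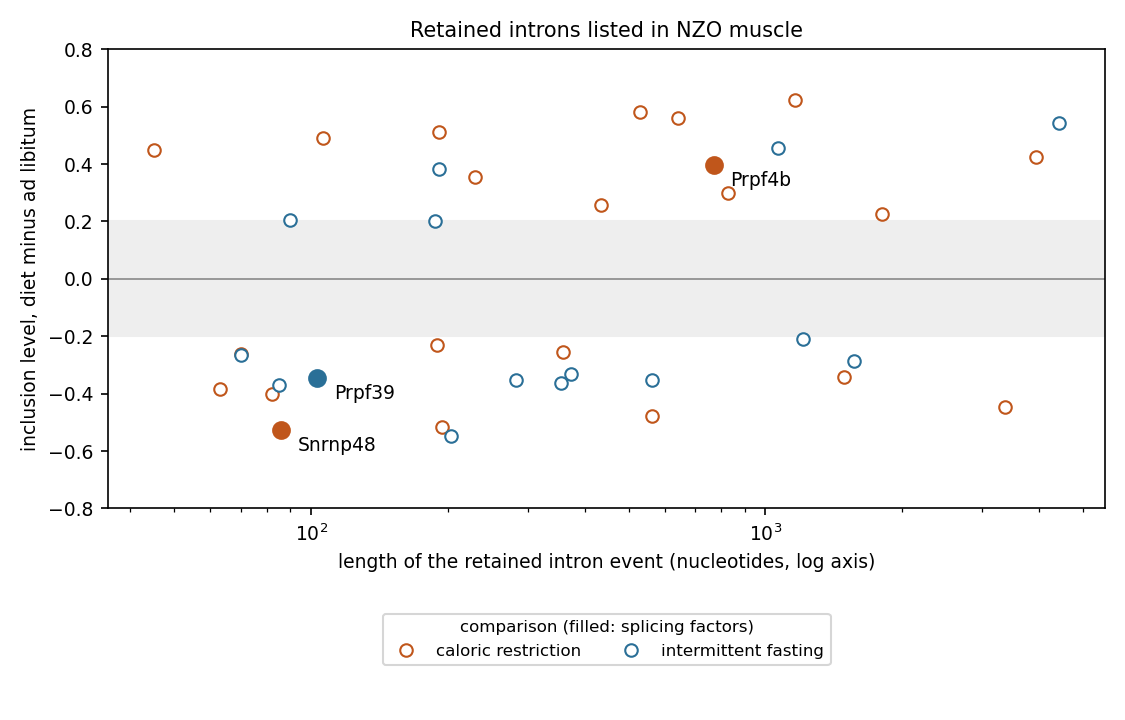
Difference in inclusion level between diet and ad libitum (vertical axis) against the length of each listed retained intron stretch (horizontal axis, nucleotides, log scale) under caloric restriction (orange) and intermittent fasting (blue). Filled points are Prpf4b, at 0.395 and 770 nucleotides, Prpf39, at -0.345 and 103, and Snrnp48, at -0.528 and 86; the grey band holds no events because differences under 0.2 are not listed.

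The most similar event of another gene, by Euclidean distance over control and treated level within the same type and comparison, was a retained intron of Phykpl for Prpf4b (distance 0.0376; levels 0.5001 and 0.856) and of Bcdin3d for Snrnp48 (distance 0.0628; levels 0.792 and 0.346). For Prpf39 it was a retained intron of Pan2, a subunit of a poly(A)-shortening complex (distance 0.0815; levels 0.666 and 0.303). For Tia1 it was an alternative 3' splice site of Tm7sf2 (distance 0.112; levels 0.453 and 0.715). Each of these distances rests on 2 levels only.

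The 5 distinct events had starting levels between 0.341 and 0.860, so by the authors' levels both versions of each transcript were present ad libitum. From its level, the event of Prpf39, Tia1 or Prpf4b could have been listed in either direction. Those of Cwc22 and Snrnp48, above 0.8, could be listed as lower only, since every listed difference is at least 0.2. The length of the Cwc22 stretch is divisible by 3, and those of the other 4 events are not. This rests on counting both ends of a position, which was inferred from skipped exons of Neb only; with one end left out, the lengths of Prpf39 and Tia1 would be divisible by 3 and that of Cwc22 would not. The table does not say whether any of the stretches is translated, so nothing follows for the reading frame.

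In RefSeq's annotation of GRCm38.p6, which is the mm10 assembly, all 5 genes are protein-coding, and each event lies inside its gene, on the listed strand, with no other annotated gene over it. RefSeq gives 30 transcripts for Prpf4b, 14 for Tia1, 11 for Cwc22, 7 for Prpf39 and 4 for Snrnp48. Measured from the 5' end of the gene, the event of Cwc22 lies 20.8% into the gene span, that of Prpf39 27.1%, that of Snrnp48 50.0%, that of Tia1 67.7% and that of Prpf4b 92.3%. Prpf4b and Snrnp48 lie on the same chromosome, with 3.31 Mb between their events.

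**Figure D4:**
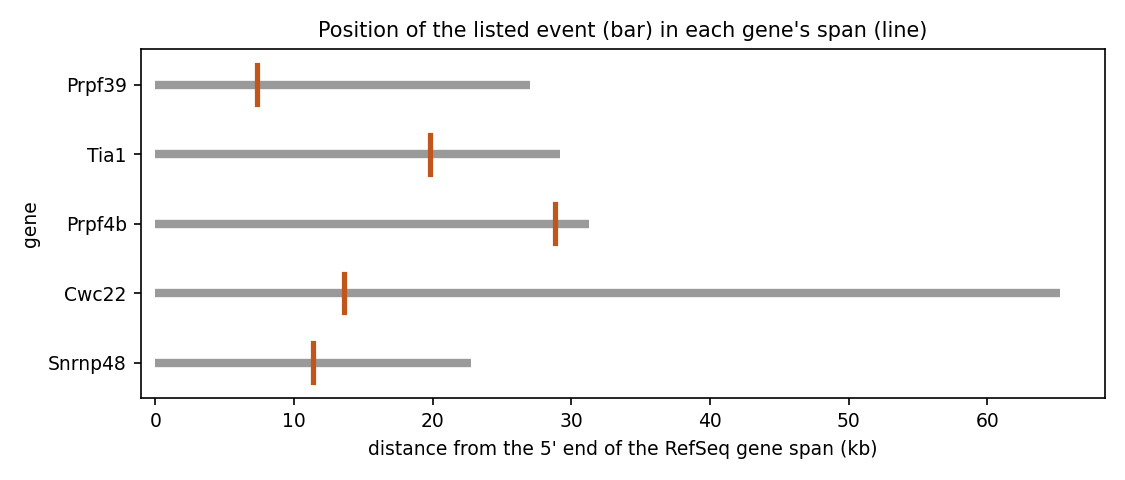
Position of the listed event (orange bar) along the RefSeq span of each gene (grey line), as the distance from the gene's 5' end in kilobases. The events lie between 20.8% of the span, in Cwc22, and 92.3%, in Prpf4b.

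Of 270 genes in 10 lists of splicing factors, 6 (2.22%) had a listed event, namely the 5 genes above and Rbm10, an RNA-binding regulator of exon choice. The lists were written with the 5 genes known, so their presence in them is no finding. Over the whole table, 214 of the 21896 protein-coding genes of RefSeq (0.977%) had a listed event, a share that takes in genes not expressed in muscle. Rbm10 had a 3-nucleotide alternative 5' splice site event on chromosome X, with an ad libitum level of 0.303 and a level of 0.893 under caloric restriction. The lists of the U2 snRNP (23 genes), the Sm and Lsm core proteins (15 genes), the exon junction complex (15 genes), the SR proteins with their kinases (26 genes) and the hnRNP proteins (37 genes) had no member with a listed event. Because the share over all protein-coding genes takes in genes not expressed in muscle, it gives no expected count for these lists. Nothing is therefore read from those zeros. Besides Prpf39 and Tia1, the other genes of the 12 on the U1 list were not listed, nor were the other genes of the 22 on the tri-snRNP list besides Prpf4b, of the 13 on the minor spliceosome list besides Snrnp48, or of the 33 on the list of activation and catalysis besides Cwc22. How many of these genes were tested by the authors is not known from the table, so no share of tested genes can be given.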

How the data were processed

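Muscle RNA was purified on columns and treated with DNase, per the labels' protocols. Per the labels' design text, splicing was analysed with Whippet and rMATS. Which tool gave which value, read depth and the way mice were combined are not stated. Per the submitters' processing notes, positions are on build mm10.

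The authors deposited called events only, with the inclusion level of each group as a fraction from 0 to 1, the difference (control minus treated, turned here to treated minus control, largest gap to the levels 1e-05), a probability that is not a p-value, and a confidence class of 1 or 2 whose meaning is not stated. Both ends of a position were counted as part of the event: the lengths of all 15 distinct Neb exons are then divisible by 3, and none is with one end left out.

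Counts, ranks and distances were computed with Python 3.11.15, numpy 2.4.6 and pandas 2.3.3, drawn with matplotlib 3.10.9, and checked on simulated events. No test was run: there is 1 value per group, and the 5 genes were chosen from called events. Of the 270 splicing-machinery symbols, 269 matched RefSeq. The genes named are the 5, every listed gene of the machinery lists, and the nearest events by level. Outside that rule, Hectd2, Neb and Zfp446 are named from the events listed in both diets. The 5 genes and the lists were chosen with earlier results of these data known. Alternatives were a minimum difference of 0.3, a minimum probability of 0.95, confidence class 1 alone, another reading of positions, and the ad libitum level of either block.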

Additional observations from a re-analysis of the deposited data

How the results depend on the processing

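Under caloric restriction the 4 events of the splicing factors were all kept at a minimum difference of 0.3 and in confidence class 1, and 3 were kept at a minimum probability of 0.95, where Tia1 was lost. Under intermittent fasting both events were kept at a minimum difference of 0.3. The count fell from 2 to 1 at a minimum probability of 0.95, where Cwc22 was left, and from 2 to 1 in confidence class 1, where Prpf39 was left. The machinery lists hold the same events under fasting, with 1 left under each of those alternatives. Under caloric restriction their 5 events all passed a difference of 0.3, while 4 were left at a probability of 0.95, where Tia1 was lost, and 4 in confidence class 1, where Rbm10 was lost. These alternatives only remove events, and no direction turned. With one end of the position left out, the lengths would be 102, 738, 769, 2 and 85 nucleotides for Prpf39, Tia1, Prpf4b, Cwc22 and Snrnp48, which turns divisibility by 3 for Prpf39, Tia1 and Cwc22. The ad libitum level of Cwc22 was 0.860 from either block. Read depth is unknown, so what it limits could not be assessed. No paired analysis was possible because only 1 level is given for each group and no label pairs the mice.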
